A study of Mus musculus with 4 samples.

Results

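Proteasome genes are described here by the accessible chromatin at their promoters in LβT2, an established mouse line that resembles the gonadotropes of the pituitary (LbT2 in the cell line label and LbT2b in the sample titles). A peak was taken as a member when the deposited annotation placed it at a promoter and gave it a gene name of the series Psma to Psmg followed by a number. That rule found 135 peaks among 45614 promoter peaks, and among 417506 peaks in all. They carried 37 gene names out of the 15603 names that promoter peaks had. There were 35 member peaks in vehicle library 1, 32 in vehicle library 2, 34 in activin library 1 and 34 in activin library 2. Of the 37 names, 35 belong to a fixed list of 48 genes for subunits, activators, assembly chaperones and the inhibitor. The other 2 are Psmc3ip, a cofactor of meiotic recombination, and Psmb6-ps, a pseudogene, and they were kept apart.

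The assay was ATAC-seq, which uses a transposase to cut open DNA and leave sequencing adapters there. Cells went overnight without serum and then received vehicle, or activin A at 1 nM, for 6 h; activin A is a ligand of the TGFβ family. Each treatment had 2 libraries, and no genetic change is named for either group. The labels do not say whether the libraries came from separate cultures, so spread and p-values cover differences between these libraries, which may be technical.

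The proteasome is the cell's main protease for ubiquitin-tagged proteins. Its 20S core is a barrel of α and β rings, of which the β subunits encoded by Psmb5, Psmb6 and Psmb7 cut peptide bonds, and its 19S cap recognises, unfolds and feeds in substrates. In cells of the immune system, or after interferon γ, Psmb8, Psmb9 and Psmb10 encode replacements for those catalytic subunits, and this immunoproteasome makes many of the peptides shown on MHC class I. Psmb8 and Psmb9 sit in the MHC region beside the peptide transporter genes Tap1 and Tap2.

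Promoter windows of the catalytic subunits and their counterparts, apart from Psmb7, and of the 2 constitutive genes with no peak near the start, are shown because presence and strength of the peaks turned on them. Each runs from 250 bases before to 50 bases after the start of the gene in RefSeq, build GRCm38.p6, 5′ to 3′ along the gene. Capitals mark matches on either strand to any of 7 motifs, which may overlap each other.
Psmb5 (chr14:54617946-54618245, minus strand): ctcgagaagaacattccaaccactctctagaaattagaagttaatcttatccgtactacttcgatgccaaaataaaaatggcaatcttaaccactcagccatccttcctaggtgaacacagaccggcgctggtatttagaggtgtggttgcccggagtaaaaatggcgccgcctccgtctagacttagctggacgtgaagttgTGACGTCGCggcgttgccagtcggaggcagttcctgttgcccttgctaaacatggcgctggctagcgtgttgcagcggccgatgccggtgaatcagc
Psmb6 (chr11:70525107-70525406, plus strand): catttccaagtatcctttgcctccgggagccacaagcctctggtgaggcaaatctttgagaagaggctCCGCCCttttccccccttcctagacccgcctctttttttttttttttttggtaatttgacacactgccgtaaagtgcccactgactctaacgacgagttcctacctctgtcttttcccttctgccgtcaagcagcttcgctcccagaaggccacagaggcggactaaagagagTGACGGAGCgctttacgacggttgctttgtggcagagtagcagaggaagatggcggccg
Psmb8 (chr17:34197945-34198244, plus strand): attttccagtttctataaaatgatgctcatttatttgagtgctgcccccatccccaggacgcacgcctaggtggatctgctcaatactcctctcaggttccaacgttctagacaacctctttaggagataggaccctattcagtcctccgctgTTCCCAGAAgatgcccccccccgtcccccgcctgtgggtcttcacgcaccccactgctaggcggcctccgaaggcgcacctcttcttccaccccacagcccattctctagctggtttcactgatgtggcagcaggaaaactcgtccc
Psmb9 (chr17:34187281-34187580, minus strand): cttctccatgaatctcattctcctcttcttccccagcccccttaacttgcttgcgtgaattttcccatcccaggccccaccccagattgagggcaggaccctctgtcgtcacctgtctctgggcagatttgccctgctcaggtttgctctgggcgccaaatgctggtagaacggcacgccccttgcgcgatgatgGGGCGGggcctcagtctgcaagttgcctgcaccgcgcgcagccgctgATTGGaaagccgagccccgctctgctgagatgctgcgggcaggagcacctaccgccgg
Psmb10 (chr8:105938343-105938642, minus strand): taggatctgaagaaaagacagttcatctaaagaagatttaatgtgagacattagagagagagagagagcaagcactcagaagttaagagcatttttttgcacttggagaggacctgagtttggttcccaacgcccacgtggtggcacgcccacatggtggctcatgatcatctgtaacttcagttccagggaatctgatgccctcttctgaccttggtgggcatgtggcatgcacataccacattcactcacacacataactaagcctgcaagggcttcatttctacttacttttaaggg
Psma7 (chr2:180042415-180042714, minus strand): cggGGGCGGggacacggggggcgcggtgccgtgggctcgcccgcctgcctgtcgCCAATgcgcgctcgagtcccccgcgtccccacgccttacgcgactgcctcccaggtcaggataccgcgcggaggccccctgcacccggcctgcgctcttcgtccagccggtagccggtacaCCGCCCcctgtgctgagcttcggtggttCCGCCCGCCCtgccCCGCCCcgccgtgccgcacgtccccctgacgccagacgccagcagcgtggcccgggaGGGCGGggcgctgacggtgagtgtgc
Psmc5 (chr11:106255935-106256234, plus strand): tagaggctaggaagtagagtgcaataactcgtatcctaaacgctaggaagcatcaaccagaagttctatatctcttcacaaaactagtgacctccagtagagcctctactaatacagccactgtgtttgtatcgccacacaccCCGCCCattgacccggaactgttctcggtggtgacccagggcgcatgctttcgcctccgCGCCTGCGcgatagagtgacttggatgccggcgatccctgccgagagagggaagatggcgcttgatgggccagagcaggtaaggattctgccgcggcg

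The motifs searched were TGACNNNGC, the core of the antioxidant response element, CGCANGCG for NRF1, CCAAT for the CCAAT box, CCGGAAG for ETS factors, GGGCGG for the GC box, GAAANNGAA for interferon regulatory factors and TTCNNNGAA for the interferon γ activated site. They were present in 12.4%, 8.21%, 37.4%, 8.86%, 35.7%, 8.56% and 8.30% of the 32851 promoter windows of the table, in that order. The table held a window for 40 of the 48 genes. A gene counted when any of its windows held the letters, whereas the shares above are per window. Psma6, Psmc2 and Psme2 had more than 1 window. Psma6 counted for CCAAT only through the window at chr12:55383972-55384271, which no peak covered in any library. Psmc2 counted for the interferon factor repeat only through the window at chr5:21786497-21786796. Among the 25 constitutive subunit genes with a window, the ETS letters were in 10, the GC box in 15, CCAAT in 10, the NRF1 letters in 7 and the antioxidant response core in 4, which were Psmb5, Psmb6, Psmc6 and Psmd12. Interferon factor repeats were in 4 constitutive windows, Psmb3, Psmb4, Psmc2 and Psmd4, and the interferon γ site letters in 1, Psmd2. Of the 3 immunoproteasome windows, Psmb8 held the interferon γ site letters, Psmb9 held CCAAT and the GC box, and Psmb10 held none of the 7. The immunoproteasome windows were less rich in CpG than the constitutive ones, with a median observed-to-expected CpG ratio of 0.523 against 0.799, where all windows had 0.384. Within that trio Psmb10 had 0.192. A match says only that the letters are there, and a window without one may hold a variant of the motif.

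Presence at promoters was read first from the gene names. A promoter peak was named in all 4 libraries for 24 of the 48 genes. These were 68.6% of the 35 named in any library, where the like share of all promoter gene names was 44.9%. By class these were 16 of 31 constitutive subunits, 2 of 3 immunoproteasome subunits and 6 of 12 activators, chaperones and the inhibitor. Neither tissue-restricted subunit gene was named in any library, these being Psmb11 of the thymus and Psma8 of the testis. Every gene of the constitutive β ring, Psmb1 to Psmb7, was present in all 4. The α ring had only Psma1 and Psma2 in all 4 by name.

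Many of the missing names belonged to genes whose start did lie under a peak. When any peak within 1 kb of the RefSeq start was counted, whatever its name, 44 of the 48 genes had one in all 4 libraries, and 42 had one over the start itself in all 4. Of the 40 genes whose start came from the promoter table, 37 and 35 did so, beside 53.3% and 48.1% of the 17492 protein-coding genes in that table. In 58 pairs of gene and library a peak was found this way and not by the rule. In 37 of those the annotation gave the peak to another gene, and in 21 it had the right gene but an exon or intron label. Psma5, an α ring subunit, shared its peak with 1700010K24Rik, whose −log10 q was 20.9, 14.7, 29.6 and 18.5 in vehicle libraries 1 and 2 and activin libraries 1 and 2. Throughout, values in sets of 4 keep that order of libraries. The −log10 q is the significance of a called peak in the deposited list, here called its strength. It is not a measure of enrichment: Psmc4 had a mean of 50.3 at a mean fold enrichment of 3.91, and Psma2 had 28.2 at 6.86.

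The other genes without a name in any library but with a peak in all 4 were Psma6 of the α ring, the ATPase gene Psmc2, the lid genes Psmd7, Psmd13 and Psmd14, the activator genes Psme2 and Psme4, and the chaperone gene Psmg2. The peaks of Psmc2, Psmd13, Psmd14, Psme2, Psme4 and Psmg2 were named for Dnajc2, Sirt3, Gm13626, Rnf31, Gm12101 and Cep76, in that order, and Psmd7 kept its own name with an exon label. Psmd14 encodes the deubiquitinase of the 19S lid. The −log10 q at its start was 10.5, 7.29, 16.8 and 11.1. All 4 of those values are above 5. By name, 17 of the 35 genes named in any library reached 5 in all 4, or 48.6%, beside 31.6% of all promoter gene names. By position 32 of the 48 did, 27 of them among the 40 genes of the promoter table, beside 38.2% of its protein-coding genes.

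A further 11 genes carried the name in 1 to 3 libraries and had a peak near the start in all 4. Psma3 was named in vehicle library 2 and activin library 1, and Psma4 in all but vehicle library 2. Psmc1, an ATPase gene, was named in activin library 1 alone, and Psmc3, another ATPase gene, in both activin libraries alone. At the Psmc3 start the vehicle peaks, given to Gm13778, had −log10 q of 5.30 and 8.09 against 19.6 and 13.95 for activin. So the absence of the name Psmc3 in vehicle was not an absence of a peak. Psmd6, a lid gene, was named in vehicle library 1 alone, Psmd11 in all but vehicle library 2, and Psmd12 in all but activin library 1. The chaperone gene Psmd10 was named in vehicle library 1 and activin library 2, and Psmg4 in activin library 2 alone. The inhibitor gene Psmf1 was named in all but vehicle library 1, and Psmb10 in vehicle library 1 alone.

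**Figure D1:**
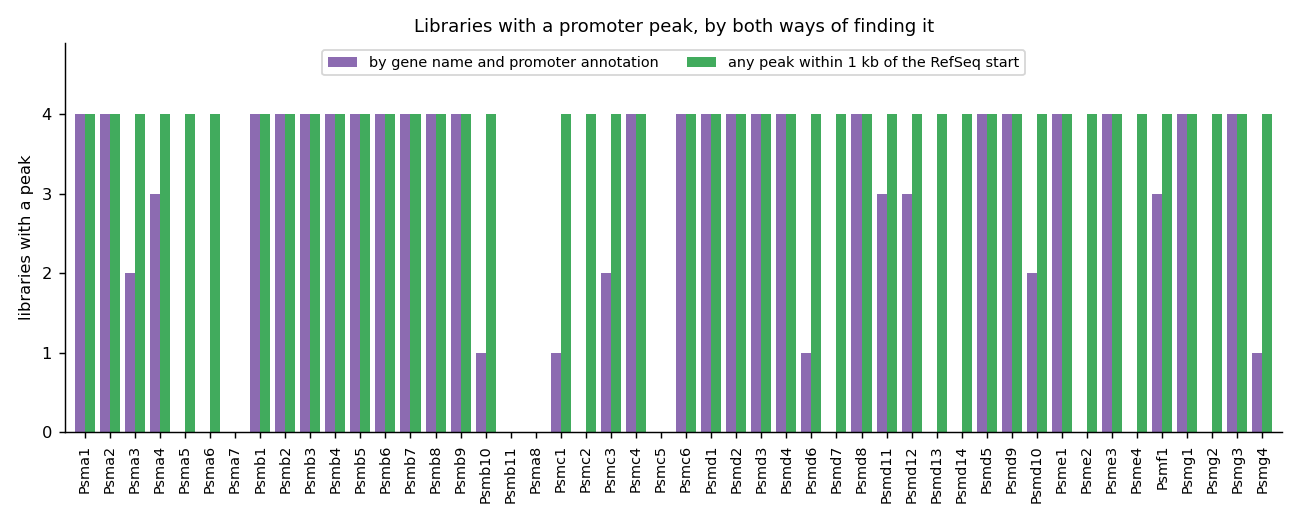
Number of libraries, of 4, with a promoter peak for each of the 48 genes, by name and promoter label (purple) and by any peak within 1 kb of the RefSeq start (green). By name 24 genes reached 4 libraries and by position 44; Psma7, Psmc5, Psmb11 and Psma8 had none by either.

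Of the constitutive subunit genes, 2 had no peak within 1 kb in any library. Psma7 encodes an α ring subunit, and the nearest peak to its start was 16.9 kb away in all 4 libraries and named for Lsm14b. Psmc5 encodes an ATPase of the 19S base, and its nearest peaks were 1.72, 1.97, 1.68 and 2.24 kb away, named for Ftsj3. Those Ftsj3 peaks were weak, with −log10 q of 2.00, 1.61, 1.56 and 1.07. The Psma7 window printed above holds CCAAT and several GC boxes, and the Psmc5 window holds the NRF1 letters and a GC box. Psmb11 and Psma8 also had no peak within 1 kb in any library. Their nearest peaks were 6.68 to 7.02 kb and 11.7 to 20.6 kb away.

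The 3 constitutive catalytic genes differed among themselves in peak strength. Psmb6 encodes the β1 subunit, with caspase-like activity, and its −log10 q was 7.37, 10.5, 13.8 and 11.8. Psmb5 encodes β5, with chymotrypsin-like activity, and had 2.15, 2.44, 3.35 and 3.90. Psmb7 encodes β2, with trypsin-like activity, and had 3.20, 3.90, 4.86 and 2.85. Psmb6 was above Psmb5 and Psmb7 in every library. Psmb4, a β ring gene without catalytic activity, was in the same low range as Psmb5 and Psmb7, with 3.44, 3.55, 3.18 and 3.71.

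Their immunoproteasome counterparts had these values. Psmb8, the counterpart of Psmb5, had −log10 q of 8.30, 4.85, 13.8 and 11.5, above Psmb5 in all 4 libraries. Psmb9, the counterpart of Psmb6, had 16.7, 10.4, 28.1 and 18.6, which was above Psmb6 in vehicle library 1 and both activin libraries and just below it in vehicle library 2. For Psmb10, the counterpart of Psmb7, the promoter peak of vehicle library 1 had 1.41. Psmb10 also had a stronger peak inside the gene, labelled exon or intron, with −log10 q of 6.93, 6.30, 12.8 and 6.42. That peak lay at chr8:105936807-105938170 in activin library 1, and the printed Psmb10 window was not covered by it there. In activin library 2 it lay at chr8:105936930-105938438, covering the start and 32% of the window.

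The Psmb9 peak, at chr17:34186971-34188334 in activin library 1, covered the Psmb9 start and also the start of Tap1, 226 bp away. It was named for Psmb9, but its promoter label carried the identifier of a different gene in all 4 libraries. Accessibility at these 2 starts cannot be told apart in these lists. Psmb8 had a peak of its own, at chr17:34197411-34198868 in activin library 1.

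Among the other constitutive genes the strongest peaks were at Psmc4, an ATPase gene, and Psmd8, a lid gene. Psmc4 had −log10 q of 43.4, 40.4, 59.4 and 58.0, and Psmd8 had 34.6, 28.4, 69.3 and 45.9. Psma2 followed with 22.0, 21.3, 36.6 and 32.8, from a peak whose promoter label carried the identifier of Mrpl32, a mitochondrial ribosome gene. The constitutive peaks that reached a −log10 q of 5 numbered 16 of 20, 15 of 18, 18 of 21 and 17 of 20. At a threshold of 2 all of them passed in each library, and at 10 there were 11, 10, 17 and 16. Of all promoter peaks 62.2%, 47.1%, 73.1% and 71.7% reached 5.

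**Figure D2:**
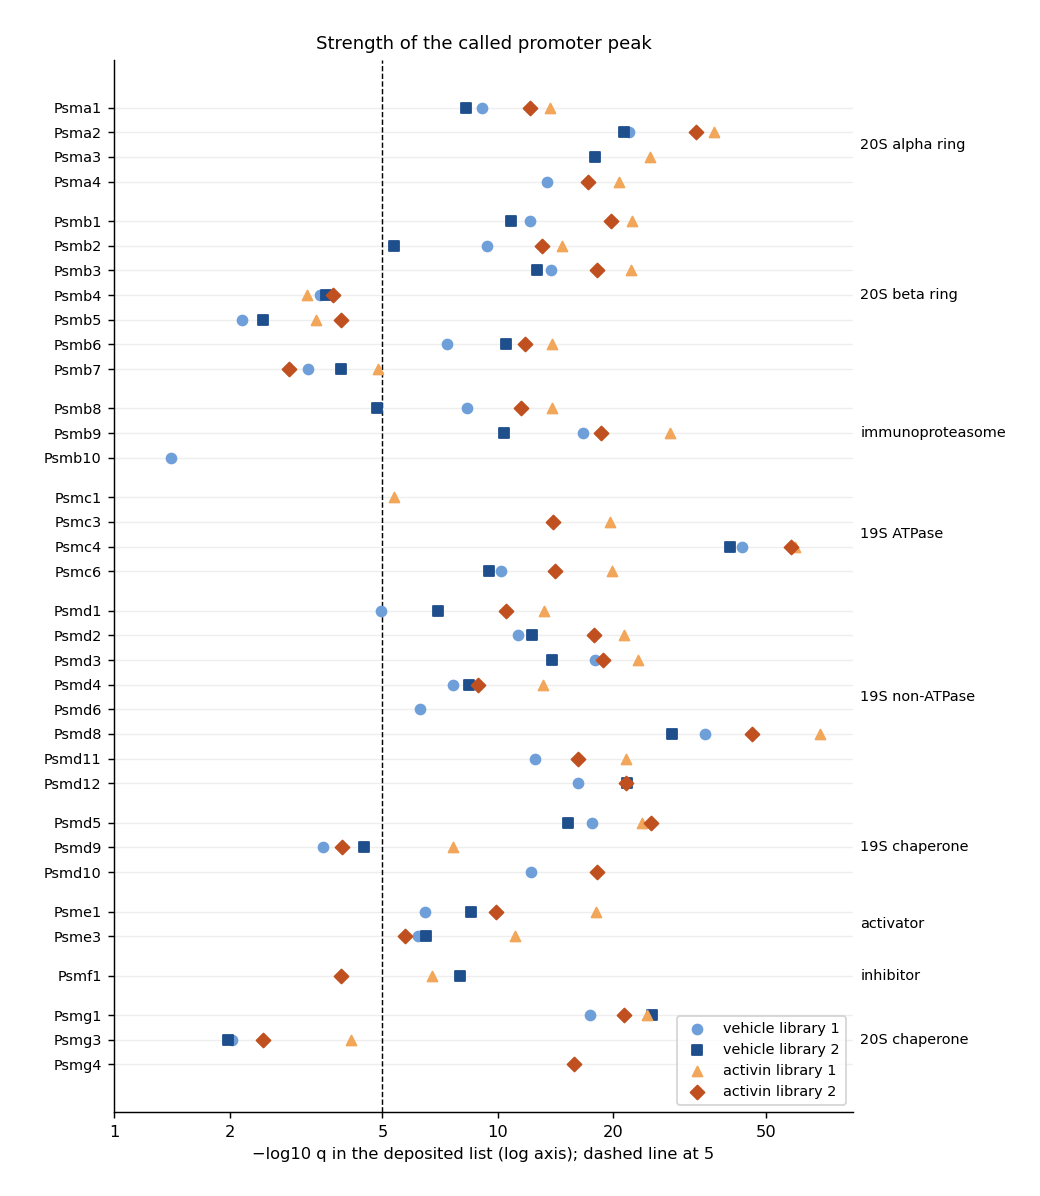
Strength of the strongest promoter peak of each gene in each library, as −log10 q on a log axis, grouped by role, with a dashed line at 5. Psmb4, Psmb5, Psmb7 and Psmg3 lie left of the line in all 4 libraries, and Psmc4 and Psmd8 lie farthest to the right.

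The activator, inhibitor and chaperone genes, taken by name, had a median −log10 q of 6.47, 7.95, 11.1 and 9.87. That was below the constitutive median in each library, which was 10.7, 10.7, 19.9 and 15.2. These medians leave out start peaks with another name or label, such as those of Psma5 and Psmd7 among the constitutive genes. Among the accessory genes they leave out Psme2, Psme4 and Psmg2, whose start peak had 19.7, 27.1, 42.3 and 25.1 at Psmg2. The order of the 2 medians therefore holds for named peaks only, and was not examined over all start peaks. Psme1 and Psme2 encode the α and β subunits of PA28, an interferon-inducible activator, and Psme3 encodes PA28γ, a nuclear one. Psme1 had −log10 q of 6.47, 8.52, 18.0 and 9.87, and Psme3 had 6.17, 6.48, 11.1 and 5.74. The peak over the Psme2 start, named for Rnf31, had 18.4, 16.3, 32.9 and 31.2, the strongest of the trio in each library. Psmg1, which helps assemble the α ring, had 17.3, 25.3, 24.5 and 21.4, while Psmg3, another chaperone of the ring, had 2.02, 1.97, 4.13 and 2.44. Psmd5, a chaperone of the 19S base, had 17.5, 15.2, 23.8 and 25.1.

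Read density was the second measure. It is the number of high-quality reads in a peak per kb of that peak and per 1000000 high-quality reads of the library. Density is taken over each library's own called length and is not corrected for the local level, which limits comparison between genes. Psmb5 had densities of 1.21, 1.14, 1.22 and 1.39, and Psmb4 had 1.34, 1.32, 1.08 and 1.07. They were the lowest of the constitutive genes present in all 4 libraries, at about the 10th percentile of promoter peaks (mean percentiles 9.82 and 10.2). These densities were near the genome median of weak peaks, those with a −log10 q under 2, which was 1.31, 1.21, 1.19 and 1.25. Psmc1, labelled promoter in activin library 1 alone, had 1.78 there. Its intron-labelled peaks had 1.46 and 1.70 in vehicle libraries 1 and 2 and 1.38 in activin library 2. At the other end, Psmc4 had densities of 12.3, 10.4, 11.9 and 13.0, with a mean percentile of 99.7. Psmd8 had 8.08, 7.20, 10.96 and 9.92 (mean percentile 98.9), and Psmb3, a β ring gene, had 4.10, 3.75, 4.85 and 4.36.

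Psmb8 and Psmb9 had densities above those of most promoter peaks. Psmb8 had 3.80, 3.50, 4.51 and 4.35, and Psmb9 had 4.60, 3.50, 5.50 and 5.33, with mean percentiles of 76.5 and 84.1. Psmb6 reached 3.83, 4.13, 2.93 and 3.98, and Psmb7 had 2.04, 2.18, 1.99 and 1.93. So by density Psmb8 was above Psmb5 in every library, and Psmb9 was above Psmb6 in all but vehicle library 2. The Psmb10 promoter peak of vehicle library 1 had 1.67.

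**Figure D3:**
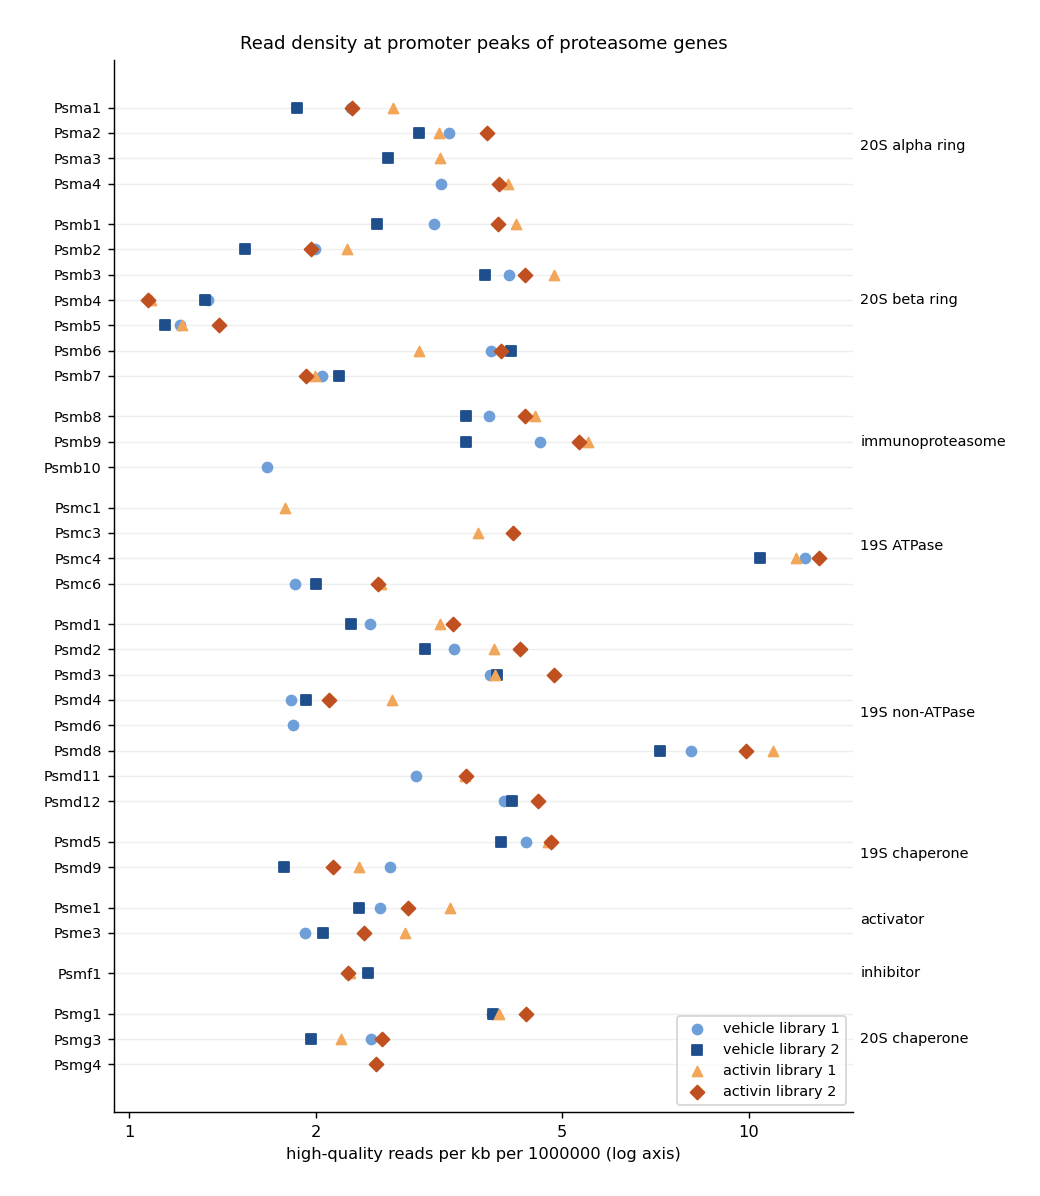
Read density of the strongest promoter peak of each gene in each library, on a log axis, grouped by role; reads are given for autosomes only, so Psmd10 on X is not plotted. Psmc4 and Psmd8 stand to the right of every other gene, and Psmb4 and Psmb5 to the left.

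The median density of the constitutive genes was between 2.56 and 3.86 in the 4 libraries, and that of the immunoproteasome genes was 3.80, 3.50, 5.01 and 4.84. The immunoproteasome median rests on 3 genes in vehicle library 1 and on Psmb8 and Psmb9 in the other libraries. On the log2 scale the constitutive median minus the immunoproteasome median was −0.34, −0.45, −0.65 and −0.32, with a mean of −0.44 ± 0.152 (SD over the 4 libraries). It was below 0 in all 4. No test was made of it, since the genes of a class are not replicates.

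The order turned round when the fold enrichment of the deposited lists was used, a choice made after the data had been seen. That fold is the authors' value of a peak over the peak caller's own background. Its median was 4.00, 3.49, 4.01 and 4.33 for the constitutive genes and 2.60, 2.34, 3.20 and 3.23 for the immunoproteasome genes, a mean log2 difference of 0.49 in favour of the constitutive genes. Psmb8 had folds of 2.60, 2.03, 2.79 and 2.87 and Psmb9 had 3.40, 2.65, 3.61 and 3.58, with mean percentiles among promoter peaks of 25.4 and 50.7. Psmb5 had folds of 2.53, 2.50, 2.65 and 3.01 and Psmb6 had 3.20, 3.39, 3.54 and 3.76. By fold, Psmb8 was below Psmb5, and Psmb9 below Psmb6, in vehicle library 2 and activin library 2, and each was above its counterpart in the other libraries. Psmc4 was also lower by fold, at a mean percentile of 65.8 beside 99.7 by density, and so was Psmd8, at 80.8 beside 98.9.

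Weak peaks near these genes also had higher density than weak peaks elsewhere. Within 1 Mb of Psmb8, peaks with a −log10 q under 2 had a median density of 1.73, 1.83, 1.58 and 1.72, and around Psmc4 the medians were 3.14, 3.04, 2.62 and 2.87. Over the genome such peaks had 1.31, 1.21, 1.19 and 1.25. With each density divided by that local level, also chosen after the data had been seen, the mean constitutive minus immunoproteasome difference was −0.12 on the log2 scale, positive in vehicle library 2 and negative in the others. The part of the local level in the order of the classes was not tested.

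**Figure D4:**
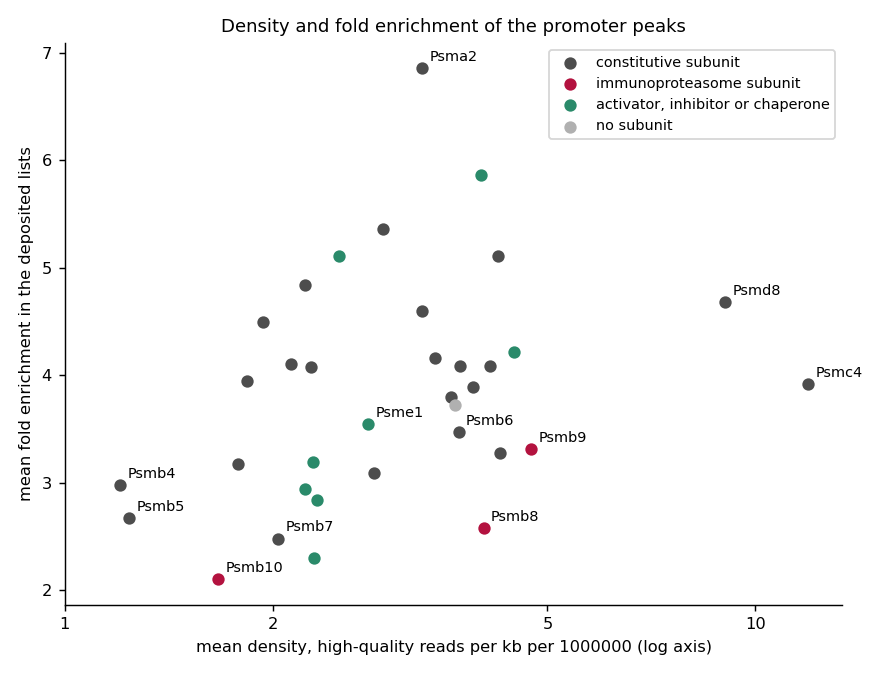
Mean density (log axis) against mean fold enrichment over the libraries in which each gene was named, one point per gene, coloured by role. Psmb8 and Psmb9 lie to the right of most constitutive genes but have folds of 2.57 and 3.31, and Psmc4 and Psmd8 are far to the right with folds inside the range of the others.

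Vehicle and activin were then compared, to see whether these promoters changed with the treatment. Of the 24 genes named in all 4 libraries, both activin densities were above both vehicle densities in 15, below in 2 and overlapping in 7. Over all promoter gene names 64.1% were above and 2.29% below. The 2 below were Psmb4, with densities near those of weak peaks, and Psmb7. For fold enrichment the counts were 18 above and 0 below, beside 60.7% and 1.55% of all names, and for −log10 q they were 19 above and 0 below, beside 75.0% and 0.782%. Most promoters, whatever the gene, were thus higher in the activin libraries on these scales, and so were the proteasome genes. Enrichment of reads at start sites over the whole library was also higher there, 3.12 and 3.04 against 2.72 and 2.48, and its part in these counts was not tested.

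The test of change was therefore made relative to all shared regions. A shared region has 1 peak of each library whose common part is at least 50% of the union, and each library's log2 density was centred on its median over the 13871 such regions. Of the 35 subunit and accessory genes named in any library, 25 could be tested. They were 17 constitutive genes, Psmb8 and Psmb9, and 6 of the accessory genes. The common part was too short at 8 genes, among them Psmb4, Psmb5 and Psmb6, Psmb10 had no single peak per library, and Psmd10 lies on X. With limma and Benjamini-Hochberg adjustment over all shared regions, 0 of the 25 passed an adjusted p of 0.05, beside 0.00% of all regions. The lowest adjusted p over all regions was 0.184. At an unadjusted p under 0.05 there were 3 of 25, Psmb1, Psmc3 and Psmb7, beside 9.53% of all regions. The first 2 were higher and Psmb7 was lower with activin, beside 3.62% of all regions higher and 5.91% lower at that threshold.

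Psmb1, a β ring gene, had densities of 3.10 and 2.52 in vehicle and 4.21 and 3.94 in activin, a centred log2 change of 0.27 ± 0.10 (SE; limma adjusted p = 0.486). Psmc3 had 2.68 and 2.55 in vehicle and 3.65 and 4.16 in activin, a change of 0.30 ± 0.12 (limma adjusted p = 0.498), which was 0.17 without activin library 2. In both genes the activin libraries were higher without overlap, also after centring. Psmb7 had the densities given above, with both activin values below both vehicle values, and a change of −0.38 ± 0.15 (limma adjusted p = 0.486). The next in that direction was the chaperone gene Psmg1, with densities of 3.84, 3.86, 3.95 and 4.37 and a change of −0.17 ± 0.11 (limma adjusted p = 0.658). None of these changes passed the adjusted threshold. When densities were scaled to library totals and not centred, all shared regions had a median of 0.27, 605 of them were called, and Psmb1 and Psmc3 were among the called at 0.54 and 0.58 (limma adjusted p = 0.0414 and 0.0340). Without division by peak length these 2 genes had values of −0.0102 and −0.0243.

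The immunoproteasome genes did not pass either. Psmb9 had a centred log2 change of 0.16 ± 0.10 (limma adjusted p = 0.643) and Psmb8 one of 0.01 ± 0.09 (limma adjusted p = 0.988). The Psmb9 value was 0.27 without vehicle library 1 and 0.0505 without vehicle library 2. Their densities were 4.05 ± 0.775 in vehicle and 5.42 ± 0.122 in activin for Psmb9, and 3.65 ± 0.215 and 4.43 ± 0.114 for Psmb8 (SD, n = 2). For PA28, the log2 change was 0.04 ± 0.12 at Psme1, 0.10 ± 0.14 at Psme3 and 0.14 ± 0.09 at Psme2, whose peak was found by position. The high-density genes Psmc4, Psmd8 and Psmb3 had −0.14 ± 0.12, 0.18 ± 0.10 and −0.05 ± 0.09.

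The median log2 change was −0.01 for the 17 constitutive genes and −0.02 for the 6 accessory genes, beside 0.00 for all shared regions and 0.03 for those labelled promoter in every library. The values of the 25 ran from −0.38 to 0.30, with 13 above 0 and 12 below. After centring, both activin libraries were above both vehicle libraries in 6 of the 25 and below in 3, beside 20.9% and 20.5% of all regions. A further 8 genes could be tested by position alone, and none of those passed the adjusted threshold with limma. Of these 8, 2 had an unadjusted p under 0.05, beside 9.53% of all regions. Psme4, which encodes the PA200 activator, had 0.31 ± 0.12, and Psmd13, a lid gene, had −0.24 ± 0.11, both named here after their values were seen. Scaled to library totals, Psme4 was called as well, at 0.59 (limma adjusted p = 0.0463).

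**Figure D5:**
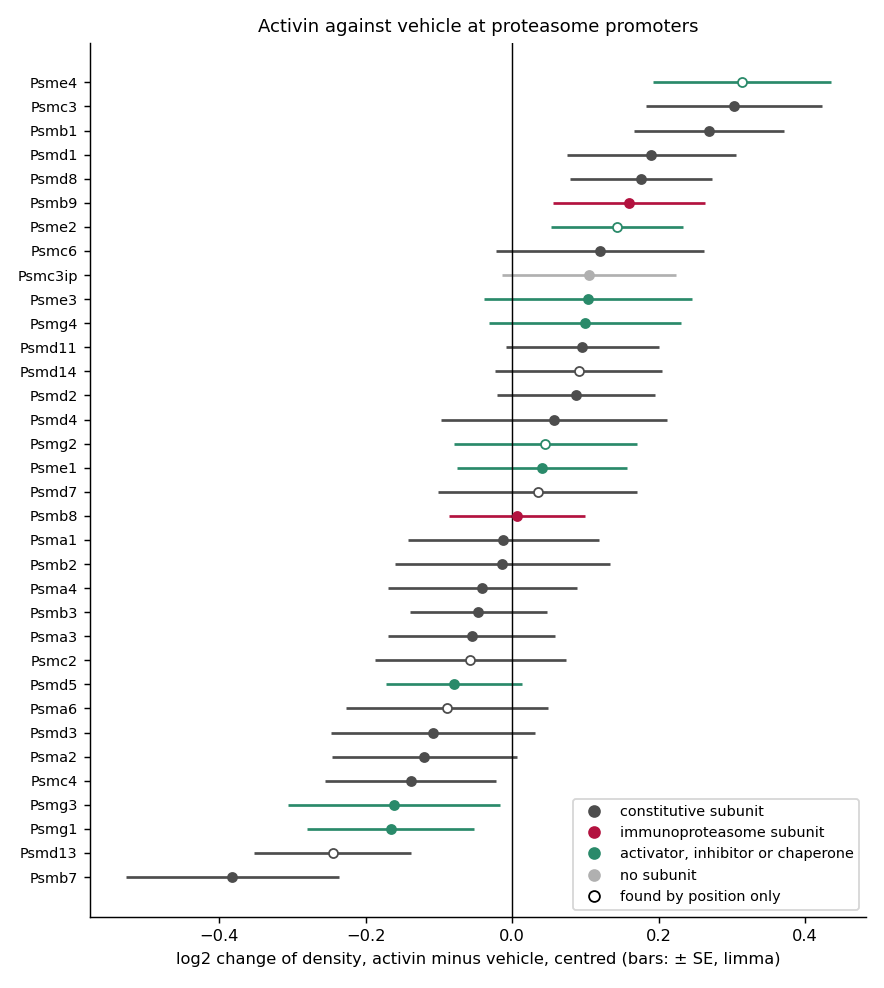
Log2 change of density, activin minus vehicle, centred on all shared regions, with limma standard errors, for the tested genes, ordered by value and coloured by role; open points were found by position alone. Values run from −0.38 at Psmb7 to 0.31 at Psme4, and none passed the adjusted threshold.

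Other genes of the pathway were read from a list in the same way. Of 24 such genes in the RefSeq table, which include ubiquitin genes, shuttle factors and regulators of proteasome genes, 8 were named in all 4 libraries and 23 had a peak within 1 kb of the start in all 4. The background shares were 44.9% of the names that any promoter peak had, and 53.3% of protein-coding genes in the promoter table. Adrm1, a ubiquitin receptor of the 19S cap, had a −log10 q of 39.4, 34.2, 75.1 and 49.9. Nfe2l1, whose protein raises proteasome gene transcription when the proteasome is inhibited, had 21.7, 20.2, 39.5 and 29.4. Its relative Nfe2l2, a regulator of the oxidative stress response, had 33.8, 32.3, 53.2 and 41.2, whereas Nfe2l3 had values under 2 in 3 libraries and no peak in activin library 2. None of the 13 tested regions of this list passed the adjusted threshold with limma. An unadjusted p under 0.05 was found for 1 of the 13, beside 9.53% of all regions.

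The list of antigen processing and interferon genes held 20 genes, of which 8 were named in all 4 libraries and 17 had a peak within 1 kb in all 4. The same background shares of 44.9% and 53.3% apply. Irf1, an interferon regulatory factor, had a −log10 q of 14.1, 16.4, 24.0 and 14.9, and Nlrc5, the transactivator of MHC class I genes, had 3.01, 5.26, 6.93 and 6.28. Ciita, the transactivator of MHC class II genes, had a peak in vehicle library 2 alone, with 1.14. None of the 8 tested regions had an unadjusted p under 0.05, beside 9.53% of all regions, and none passed the adjusted threshold with limma.

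The labelled cell type was read from marker promoters. Peaks lay within 1 kb of the start in all 4 libraries for 7 of 9 gonadotrope genes, Lhb, Cga and Gnrhr among them, while Fshb had none. Of 4 genes of other pituitary lineages 0 had a peak in all 4. Gh had one in 3 libraries, with −log10 q of 3.03 and 3.20 in vehicle and 1.28 in activin library 1. Pomc had one in both vehicle libraries, with 1.58 and 1.31, and Prl and Tshb had none in any. Of 5 leukocyte genes Spi1 alone had one in all 4, and Cd3e and Itgam were among those with none in any library.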

How the data were processed

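Libraries were 2 of vehicle and 2 of activin, with 172146474 to 224226184 high-quality autosomal reads each. The submitters' processing notes name Bowtie2, MACS2 and HOMER and the builds GRCm38 and mm10; their settings are not given in the sources used here. The authors deposited, for each library, broad peaks called without pooling, with a score, a fold enrichment ratio and the −log10 of p and of q. They also deposited peak annotations with a distance to a start site, and ataqv 1.3.1 reports with reads per autosomal peak, per the file headers. Vehicle library 2 had 178358 peaks against 70692 to 85112 in the others.

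Members and lists were chosen with earlier results of these data known. The strongest promoter peak by −log10 q stood for a gene. Gene starts, windows and symbols came from RefSeq tables of GRCm38.p6; of the 48 genes, 40 had a promoter entry and for 8 either gene end was used. Motifs were matched as letters on both strands.

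Autosomal peaks overlapping by at least 1 bp were merged. The log2 of (reads + 1) per kb of the own peak at shared regions, centred on each library's median, was tested with limma 3.58.1 (trend, no block) in R 4.3.3. This log2 scale, computed here from the deposited reads, understates changes of regions with few reads. On simulated data for activin against vehicle over 13871 regions, limma found 174 of 200 regions shifted by 1 in log2 and 73 of 200 shifted by 0.5, all in the right direction. It also called 12 and 0 of the regions left as they were, and 0 where nothing was shifted. In that unshifted run 5.11% of regions had an unadjusted limma p under 0.05, beside 9.53% in the data. The simulated spread followed the fitted trend, with no spread of its own for each region, so these rates may not carry over to the data. Reads are not independent molecules.

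Genes described in full were the catalytic and tissue-restricted β and α subunits, PA28 genes, the 3 constitutive genes of highest and of lowest density, genes without a peak in some library and the 2 of smallest p in each direction. Alternatives were other scaling, pseudocount, length, filters, common part, a replicate block, thresholds and each library left out. Tables were made with Python 3.11.15 and pandas 2.3.3.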

Additional observations from a re-analysis of the deposited data

How the results depend on the processing

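The count of genes with a promoter peak in all 4 libraries, 24 by name, was 44 by any peak within 1 kb of the start and, chosen after seeing the data, 42 by any peak over the start itself. The constitutive minus immunoproteasome difference of −0.44 was −1.31 without division by length and, chosen after seeing the data, 0.49 with fold enrichment and −0.12 over the local level. It ranged from −0.48 to −0.37 with each library left out.

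The 0 regions called by limma became 605 when scaled to all high-quality reads, which put the median of all regions at 0.27, with 553 of them higher. They became 1 with a pseudocount of 10 reads, 39 without division by length, and 0 to 9 with each library left out (1 without activin replicate 1, 9 without activin replicate 2); a lone library was then assumed to vary like the others. With that scaling 2 member genes were called, Psmb1 at 0.54 and Psmc3 at 0.58, besides Psme4 at 0.59, found by position. The constitutive median was then 0.26, beside the 0.27 of all regions. At a common part of 80% the constitutive median was 0.14, over the 2 genes left.

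With the replicate number as a block, 4 regions and 0 members were called. Deviations of same-numbered libraries had r = −0.0252 over 13871 regions, and the labels do not say what a shared number means, so the numbers were not taken to pair the libraries.

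Signs reversed at some genes. Scaled to all high-quality reads, Psmb3 was 0.23, Psmc4 0.14, Psmg1 0.11 and Psmd13 0.0289. Without division by length Psmb1 was −0.0102, Psmb9 −0.0900, Psmc3 −0.0243, Psme3 −0.124, Psmg1 0.0471, Psme2 −0.0151 and Psmd13 0.11. With each library left out, Psmb8 ran from −0.0208 to 0.0336, Psme1 from −0.0346 to 0.117 and Psme3 from −0.0327 to 0.239. Without a change of sign, Psmb3 ran from −0.0852 to −0.00723, Psmb7 from −0.52 to −0.25, Psmb9 from 0.0505 to 0.27, Psmc3 from 0.17 to 0.43, Psmc4 from −0.24 to −0.0385, Psmd13 from −0.34 to −0.15 and Psmg1 from −0.28 to −0.0555. Of 131 alternative values at 14 genes, 113 kept sign and side of the threshold.

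Each group had 2 libraries, and in the simulation fewer regions were called at a log2 shift of 0.5 than at 1. Reads outside a library's own peaks were not analysed here.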
